A study of Homo sapiens with 24 samples.

Results

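Death receptors are members of the tumor necrosis factor (TNF) receptor family that can pass a signal from the cell surface to caspases. The 9 genes described here were chosen by name, with earlier results of these data known, and matched by Ensembl identifier in a count table of 63299 genes. They are the death receptors FAS, TNFRSF10A, TNFRSF10B and TNFRSF1A, the decoy receptors TNFRSF10C and TNFRSF10D, the receptor EDA2R, the adaptor FADD and the regulator CFLAR. RNA sequencing was done on A2780, a platinum-sensitive human ovarian cancer cell line, and on its isogenic platinum-resistant counterpart A2780cis. Each line was kept in standard growth medium (control) or in medium with 1 µM 5-FdU-ECyd, a duplex prodrug that joins the nucleoside analogs 5-FdU and ECyd, for 6 h or 12 h. This gave 8 groups with 3 libraries each: A2780 control and A2780 treated at 6 h and at 12 h, and the same 4 groups in A2780cis. A2780cis cells had also been given 1 µM cisplatin for single passages at intervals to keep their resistance, which A2780 cells had not. The study describes the libraries of a group as biological replicates, and the labels number them without naming separate cultures. The p-values measure the spread between these libraries.

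FAS, TNFRSF10A and TNFRSF10B are engaged by FAS ligand or by TRAIL (TNFSF10), and their death domain then recruits FADD, on which caspases 8 and 10 assemble and are activated. TNFRSF10C and TNFRSF10D bind TRAIL without a functional death domain, TNFRSF1A is the main receptor for TNF, and CFLAR (c-FLIP) competes with caspase 8 for FADD. FAS, TNFRSF10B and EDA2R are known as transcriptional targets of p53, a factor activated by DNA damage and by nucleoside analogs.

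The libraries held between 11077368 and 21901406 counts. Levels are given as CPM (counts scaled to a common library total) after TMM scaling, which is a share of the library, so fewer cells and less RNA per cell cannot be told apart. The paper describes ECyd as an inhibitor of RNA polymerase. A rise here means a larger share, and whether it came with a loss of other RNA was not tested. Differences are log2 fold changes (log2 FC) from edgeR's quasi-likelihood test over 20240 genes, with Benjamini-Hochberg adjustment over all of them and a threshold of 0.05. The share of mitochondrial counts moved with treatment, from 5.10 to 6.55% in the 12 control libraries to between 6.95 and 7.61% after 6 h and between 8.32 and 9.94% after 12 h, and its part in the results was not tested. None of the 4 leukocyte markers exceeded 3.5 counts in any library, and none of the 3 endothelial markers exceeded 1 count. Of the markers of ovarian carcinoma, PAX8, WT1 and MUC16 had at most 2 counts, and of the epithelial markers CDH1 had at most 2 and KRT19 at most 6. KRT18 reached 3.27 CPM in A2780 and lay between 20.6 and 28.4 CPM in A2780cis, KRT8 reached 1.75 CPM in A2780 and 6.80 CPM in A2780cis, and EPCAM reached 1.96 CPM. The fibroblast marker COL3A1 lay between 194 and 301 CPM in A2780 and between 1321 and 2168 CPM in A2780cis, while COL1A1 reached 16.0 CPM and DCN 12.3 CPM.

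The start regions of FAS, TNFRSF1A, EDA2R, FADD and CFLAR were searched for the p53 response element, because FAS and EDA2R were among the members that rose after treatment. The start regions of the 4 TNFRSF10 genes are not reported here, so nothing is said of matches in them. Windows from 250 bases before to 2000 bases after each RefSeq start were read from GRCh38, and a match was a pair of half-sites with at most 2 mismatches in all and at most 13 bases between them, with the core C and G of each half-site intact. The consensus reads the same on both strands, so that both were covered. Of these 5 members, 3 had a match, and the closest match of each is printed 5′ to 3′ along the gene, with the core of each half-site in capitals.
FAS: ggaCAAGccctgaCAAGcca
EDA2R: gaaCATGcctggaCGTGtcc
CFLAR: cagCAGGtctgagCTTGtcc
The FAS match, at chr10:88991309-88991328 on the plus strand, had 2 mismatches. It began 511 bases after one of the starts, 395 bases after another and 122 bases before a further one. It lay in an intron of 13 of the 19 coding transcripts of GENCODE release 44 and touched an exon of 3. The EDA2R match, at chrX:66638713-66638732 on the minus strand, had 1 mismatch and was intronic in 2 of 4 coding transcripts. It began 537 bases after one start and 346 bases after another. The CFLAR match, at chr2:201118821-201118840 on the plus strand, had 2 mismatches, began 105 bases after a start, and was intronic in 8 of 17 coding transcripts and exonic in 1. A second FAS match with the same first half-site and 4 further EDA2R matches, some of which shared letters, had 2 mismatches each. No match was found in the windows of FADD and TNFRSF1A or in those of the other CFLAR starts. Of 22199 starts of 15843 genes searched in the same way, 20.2% had a match and 3.37% had one with at most 1 mismatch, so a match of the FAS or CFLAR kind is common, and no binding was measured. These are shares of starts, whereas the 5 members were counted as genes. FAS, EDA2R and CFLAR each have several starts, so the share of members with a match cannot be set against them.

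Treatment raised more members than it lowered in both lines. The members were chosen with earlier results of these data known, so the counts below describe them and are no test of the set. Of the 9 members, 8 passed the filter on low counts and were tested, and TNFRSF10A did not. In A2780, 5 members rose after 6 h and none fell, where 16.0% of all genes tested rose and 13.4% fell. After 12 h, 6 rose and none fell, against 28.6% and 26.1% of all genes. In A2780cis, 5 members rose and 1 fell after 6 h, against 14.4% and 16.3% of all genes, and after 12 h 6 rose and 1 fell, against 31.0% and 28.9%. The 6 h calls of TNFRSF10C and FADD in A2780cis were lost in several other settings. The median log2 FC of the 8 tested members was 0.61 and 1.31 in A2780 after 6 h and 12 h, and 0.52 and 0.89 in A2780cis, where the median of all genes lay between 0.00 and 0.04. TNFRSF10B, TNFRSF10D, EDA2R and CFLAR rose in all 4 comparisons of treated with control cells. FAS was higher than in the controls of the same time in A2780 at both times and in A2780cis at 12 h.

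**Figure D1:**
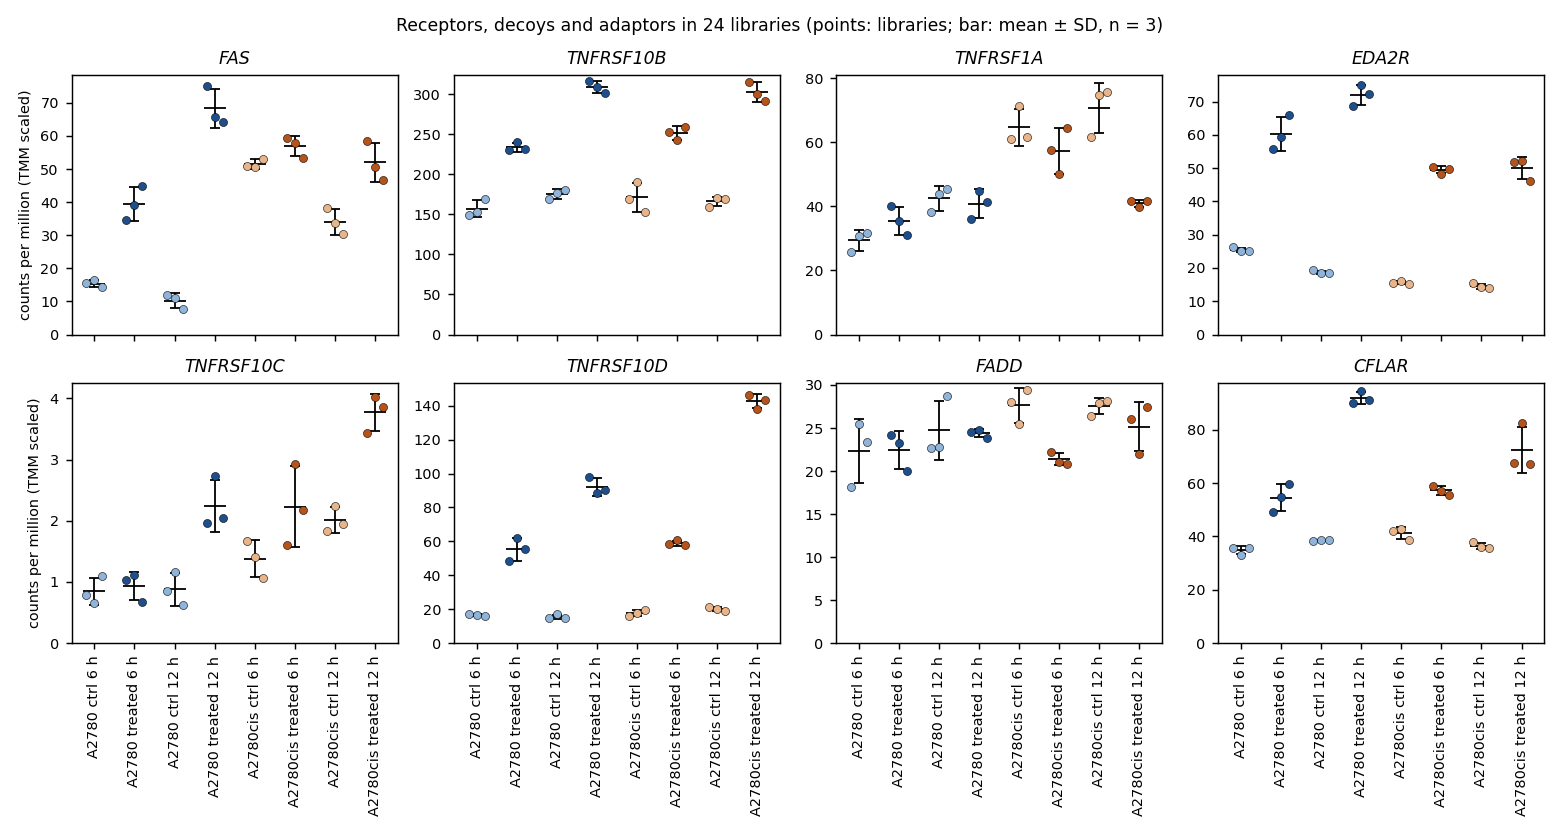
CPM (TMM scaled, linear axis from 0) of the 8 tested members in the 24 libraries, by line, treatment and time, with 1 point for each library and bars for mean ± SD of 3 libraries. FAS in A2780 controls lies at or below 16.4 CPM and TNFRSF10D in the treated A2780cis libraries of 12 h at or above 138 CPM, while FADD stays between 18.2 and 29.4 CPM in every library.

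FAS (ENSG00000026103.20, GRCh38 chromosome 10 from 88953813 to 89029605, plus strand), the receptor of FAS ligand, differed most between the lines. The A2780 controls of 6 h had 15.4, 16.4 and 14.4 CPM, and the treated libraries 34.6, 39.1 and 44.9 CPM. At 12 h the A2780 controls had 12.0, 10.9 and 7.61 CPM and the treated libraries 75.2, 65.6 and 64.3 CPM. Every treated A2780 library was thus above every control library of its time. The log2 FC was 1.36 (standard error 0.14, adjusted p = 4.84e-08) at 6 h and 2.75 (standard error 0.14, adjusted p = 1.54e-14) at 12 h, a 6.74-fold rise. A2780cis controls already held more: 50.8, 50.5 and 53.2 CPM at 6 h, with 59.3, 57.8 and 53.5 CPM after treatment. These 6 values did not overlap but lay close together, and the difference did not pass the threshold (log2 FC = 0.14, 95% interval -0.12 to 0.40, adjusted p = 0.43). At 12 h the A2780cis controls had 38.1, 33.6 and 30.4 CPM and the treated libraries 58.4, 50.7 and 46.8 CPM, again without overlap (log2 FC = 0.61, standard error 0.13, adjusted p = 1.71e-04). The exons of FAS overlap those of ACTA2, which had 39 to 1155 counts, on the opposite strand over 387 bases. This is 1.32% of the length of all annotated FAS exons, whose coding transcripts have a mean length of 3077.6 bases. They also overlap those of STAMBPL1, which had 9 to 160 counts, on the same strand over 166 bases. Reads over several genes were counted for each.

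TNFRSF10B (ENSG00000120889.12, chromosome 8 from 23020133 to 23069031, minus strand), the TRAIL receptor also called DR5, had the highest level per length of the members in every group and rose in both lines. At 6 h the A2780 controls had 149.5, 152.5 and 169.6 CPM and the treated libraries 230.6, 240.3 and 231.2 CPM. At 12 h the values were 169.5, 176.5 and 180.9 CPM in the controls and 316, 309 and 301 CPM after treatment. In A2780cis, the controls had 169.7, 190.6 and 153.6 CPM at 6 h and the treated libraries 253, 243 and 259.8 CPM. At 12 h they had 159.6, 170.5 and 168.7 CPM, and 316, 299.9 and 291 CPM after treatment. No treated library overlapped the controls of its line and time. The log2 FC was 0.57 and 0.81 in A2780 (adjusted p = 7.99e-06 and 4.71e-09) and 0.56 and 0.86 in A2780cis (adjusted p = 9.92e-06 and 1.24e-09), at 6 h and 12 h. Per length of the union of its exons, its level in A2780 controls of 12 h was 35.0 FPKM, against 14.5 FPKM for FADD, 10.1 FPKM for TNFRSF1A, 5.16 FPKM for EDA2R, 4.42 FPKM for TNFRSF10D, 1.71 FPKM for CFLAR and 0.348 FPKM for FAS. By the mean length of coding transcripts the same levels were 61.4, 14.5, 27.5, 6.60, 4.42, 18.1 and 3.31 FPKM, so the order below TNFRSF10B depends on the length used. The exons of TNFRSF10B overlap those of RHOBTB2, which had 92 to 648 counts, on the opposite strand over 7.52% of their length. The annotated exons of FAS and CFLAR span 29313 and 22478 bases in all.

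TNFRSF10A (ENSG00000104689.9, chromosome 8 from 23190452 to 23225102, minus strand), the other TRAIL receptor with a death domain, was at or near 0. None of the 12 control libraries held a count, and of the 12 treated libraries 5 held 1 or 2 counts. No difference was detectable at this depth, where a level of up to 3 counts in a library cannot be told from 0.

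TNFRSF1A (ENSG00000067182.7, chromosome 12 from 6328757 to 6342114, minus strand), the receptor of TNF, fell after treatment in A2780cis at 12 h. There the controls had 61.8, 74.8 and 75.7 CPM and the treated libraries 41.5, 39.7 and 41.6 CPM, without overlap (log2 FC = -0.79, standard error 0.12, adjusted p = 2.63e-06). The treated A2780cis libraries of 12 h thereby lay at the level of A2780. In A2780 the controls of 12 h had 38.1, 43.95 and 45.3 CPM and the treated libraries 35.9, 45.0 and 41.4 CPM, which overlapped (log2 FC = -0.06, 95% interval -0.30 to 0.19, adjusted p = 0.701). At 6 h the values were 25.6, 30.9 and 31.7 CPM in the controls and 40.0, 35.5 and 31.2 CPM after treatment (log2 FC = 0.28, adjusted p = 0.0962). Without replicate 3 of the treated A2780 libraries, this difference passed the threshold (log2 FC = 0.36, adjusted p = 0.0457). In A2780cis at 6 h, 61.1, 71.4 and 61.6 CPM stood against 57.6, 50.1 and 64.5 CPM, which overlapped (log2 FC = -0.17, adjusted p = 0.297).

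TNFRSF10D (ENSG00000173530.5, chromosome 8 from 23135588 to 23164027, minus strand), a TRAIL receptor with a truncated death domain, had the largest increase of the members in both lines at 6 h and in A2780cis at 12 h. The A2780 controls of 6 h had 17.4, 16.6 and 16.2 CPM and the treated libraries 48.4, 62.2 and 55.5 CPM. At 12 h the controls had 15.0, 17.0 and 14.8 CPM and the treated libraries 98.1, 88.3 and 90.2 CPM. The treated libraries were far above the controls at both times (log2 FC = 1.72, adjusted p = 5.63e-12, and 2.56, adjusted p = 1.43e-16). In A2780cis, the controls of 6 h had 15.7, 17.6 and 19.6 CPM and the treated libraries 58.4, 60.6 and 57.9 CPM. At 12 h the controls had 21.0, 20.1 and 19.1 CPM and the treated libraries 146.2, 138 and 143.7 CPM. The log2 FC was 1.74 (adjusted p = 2.81e-12) and 2.83 (adjusted p = 3.77e-17), the latter a rise of 7.11-fold. Of all genes tested, 2.30% had a larger log2 FC in A2780cis at 12 h, and 2.19% in A2780.

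TNFRSF10C (ENSG00000173535.13, chromosome 8 from 23102921 to 23117445, plus strand), a TRAIL decoy receptor anchored in the membrane without an intracellular domain, was low throughout, with 7 to 69.5 counts in a library. At 12 h it had 0.858, 1.16 and 0.617 CPM in A2780 controls and 1.96, 2.74 and 2.04 CPM after treatment (log2 FC = 1.37, standard error 0.25, adjusted p = 6.02e-05). In A2780cis it had 1.83, 2.25 and 1.94 CPM in controls and 3.43, 4.02 and 3.87 CPM after treatment (log2 FC = 0.91, standard error 0.21, adjusted p = 5.32e-04). The groups did not overlap in either line at 12 h. At 6 h the A2780 libraries overlapped (log2 FC = 0.12, adjusted p = 0.841), and the rise in A2780cis was near the threshold (log2 FC = 0.70, adjusted p = 0.0432). That call was lost in 7 of 14 other settings. These were the fits without replicate 2 or 3 of the controls (adjusted p = 0.0899 and 0.193) or of the treated libraries (adjusted p = 0.223 and 0.0866). The others were the DESeq2 Wald test (adjusted p = 0.119), no filter on low counts (adjusted p = 0.0672) and the compared samples alone (adjusted p = 0.0603).

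Since TNFRSF10B and TNFRSF10D bind the same ligand, the level of the decoy per level of the death receptor was computed in each library. Per length of exon union, it was 0.152 ± 0.0149 (SD, n = 3) in A2780 controls of 6 h and 0.335 ± 0.0349 after treatment, and 0.126 ± 0.0102 and 0.423 ± 0.0174 at 12 h. In A2780cis it was 0.147 ± 0.0286 and 0.332 ± 0.0197 at 6 h, and 0.171 ± 0.0137 and 0.669 ± 0.0258 at 12 h. The ratio was higher in every treated library than in any control library, with a highest control value of 0.186 and a lowest treated value of 0.298. Its highest values, from 0.653 to 0.699, were those of the treated A2780cis libraries of 12 h, where TNFRSF10D was 1.55-fold above treated A2780 (log2 difference 0.63, adjusted p = 1.17e-06). With the mean length of coding transcripts the ratio in these libraries was 0.382 ± 0.0147. The level of the decoy thus stayed below that of the death receptor in all groups on both scales.

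**Figure D2:**
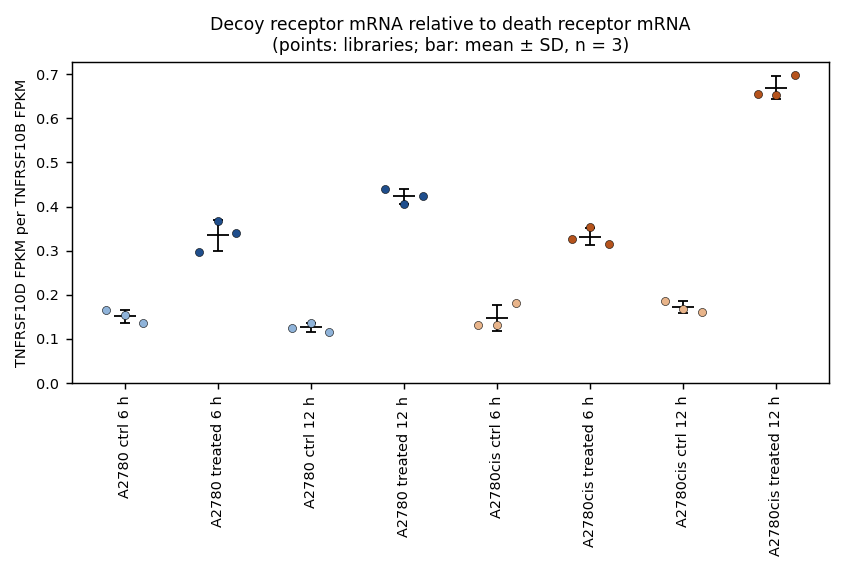
FPKM of TNFRSF10D per FPKM of TNFRSF10B (length of exon union, linear axis from 0) in each of the 24 libraries, with 1 point for each library and bars for mean ± SD of 3 libraries. All control libraries lie at or below 0.186, and the treated A2780cis libraries of 12 h lie between 0.653 and 0.699.

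EDA2R (ENSG00000131080.14, chromosome X from 66595637 to 66639298, minus strand), the receptor of the A2 form of ectodysplasin and without a death domain itself, rose in both lines and at both times. At 6 h the A2780 controls had 26.2, 25.0 and 25.1 CPM and the treated libraries 55.8, 59.2 and 65.9 CPM. At 12 h they had 19.3, 18.4 and 18.3 CPM and 68.8, 75.0 and 72.2 CPM. The log2 FC was 1.25 (adjusted p = 1.51e-10) and 1.95 (adjusted p = 2.46e-15). In A2780cis the controls of 6 h had 15.4, 16.0 and 15.2 CPM and the treated libraries 50.5, 48.3 and 49.7 CPM. At 12 h they had 15.4, 14.3 and 14.0 CPM and 51.8, 52.2 and 46.2 CPM. The log2 FC was 1.67 (adjusted p = 1.16e-12) and 1.78 (adjusted p = 1.57e-14), and no treated library overlapped a control library.

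FADD (ENSG00000168040.4, chromosome 11 from 70203296 to 70207390, plus strand), the adaptor that links the receptors to caspase 8, had between 18.2 and 29.4 CPM in all 24 libraries. Its log2 FC was 0.01 and -0.02 in A2780 at 6 h and 12 h (95% intervals -0.24 to 0.27 and -0.26 to 0.22), and -0.13 in A2780cis at 12 h (95% interval -0.37 to 0.12). In A2780cis at 6 h it fell, with 28.0, 25.5 and 29.4 CPM in the controls and 22.2, 21.1 and 20.9 CPM after treatment, without overlap (log2 FC = -0.37, adjusted p = 0.022). This call was lost when the data were scaled by library size alone (adjusted p = 0.0764), and also without replicate 1 or 3 of the controls (adjusted p = 0.0541 and 0.0854) or replicate 2 or 3 of the treated libraries (adjusted p = 0.0675 and 0.0748). Of the exon bases of FADD, 59.2% are shared with the antisense lncRNA gene ENSG00000254721, which had 207 to 460 counts. The strand setting of the counting is not stated, so reads of both genes may not have been told apart.

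CFLAR (ENSG00000003402.19, chromosome 2 from 201116154 to 201176687, plus strand), whose protein c-FLIP resembles caspase 8 and can block its activation, rose in all 4 comparisons. At 12 h the A2780 controls had 38.4, 38.6 and 38.6 CPM and the treated libraries 89.96, 94.5 and 91.3 CPM (log2 FC = 1.25, standard error 0.09, adjusted p = 9.63e-12). In A2780cis the controls had 37.8, 36.1 and 35.7 CPM and the treated libraries 67.6, 82.6 and 67.2 CPM (log2 FC = 0.99, standard error 0.09, adjusted p = 5.37e-10). At 6 h A2780 controls had 34.9 ± 1.44 CPM and treated A2780 libraries 54.5 ± 5.10 CPM (SD, n = 3). In A2780cis the controls had 41.2 ± 2.18 CPM and the treated libraries 57.2 ± 1.75 CPM. The log2 FC at 6 h was 0.64 (adjusted p = 7.77e-06) and 0.47 (adjusted p = 2.43e-04). The treated libraries did not overlap the controls at either time. The exons of CFLAR overlap those of the pseudogene IMPDH1P10 over 6.62% and of CFLAR-AS1 over 3.46% of their length, both on the opposite strand and with at most 93 and 84 counts. On the same strand they overlap the lncRNA gene ENSG00000234431, which had 7 to 75 counts, over 1.98% of their length.

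**Figure D3:**
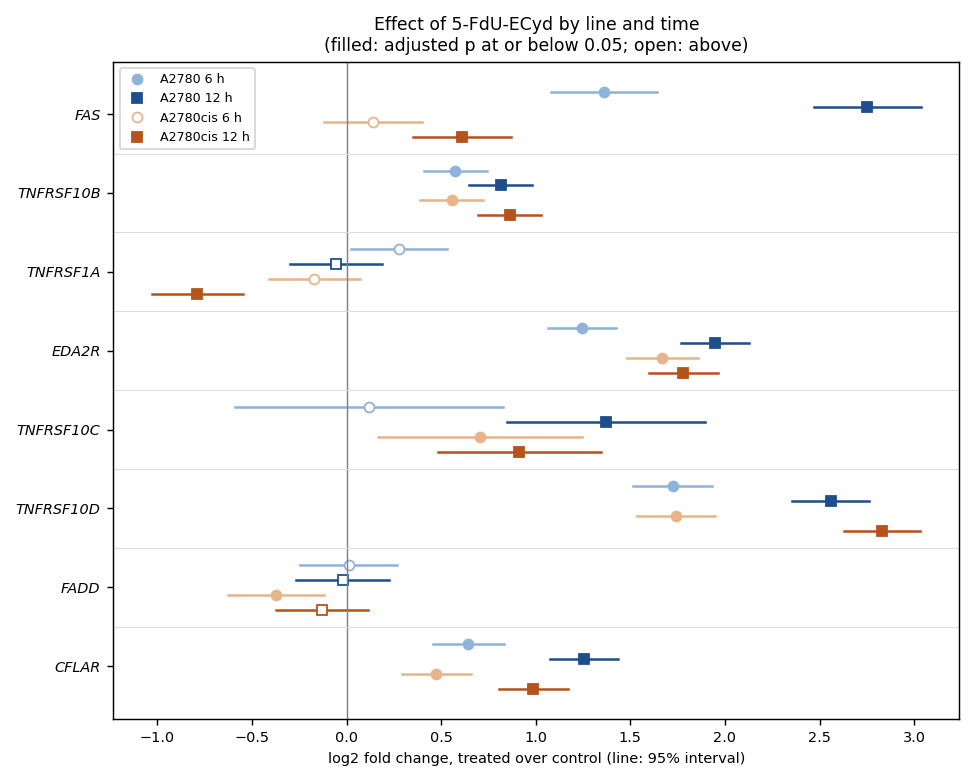
Log2 fold change of treated over control cells for the 8 tested members in A2780 and A2780cis at 6 h and 12 h, with 95% intervals from edgeR's quasi-likelihood fit. Filled symbols mark an adjusted p at or below 0.05. FAS lies at 2.75 in A2780 and at 0.61 in A2780cis at 12 h, while the intervals of TNFRSF10B at each time nearly coincide between the lines.

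Whether the lines differed in their response was tested as the difference of the log2 FC in A2780cis minus that in A2780. At 6 h the FAS effect was smaller in A2780cis by 1.22 on the log2 scale (value -1.22, 95% interval -1.60 to -0.84, adjusted p = 4.49e-04), the 1 member called, where 2.38% of all genes were called lower and 0.692% higher. At 12 h FAS (-2.14, 95% interval -2.52 to -1.77, adjusted p = 9.65e-09) and TNFRSF1A (-0.73, 95% interval -1.07 to -0.39, adjusted p = 0.00258) were called, both with the lower value in A2780cis, where 14.0% of all genes were called lower and 9.70% higher. For TNFRSF10B the difference at 12 h was 0.05 with a 95% interval from -0.18 to 0.28. For TNFRSF10D it was 0.27 (-0.0047 to 0.55, adjusted p = 0.148) and for EDA2R -0.17 (-0.42 to 0.08, adjusted p = 0.347). TNFRSF10C gave -0.46 with a wide interval (-1.14 to 0.22), and FADD -0.11 (-0.45 to 0.24). CFLAR gave -0.27 (-0.52 to -0.01, adjusted p = 0.119), which passed the threshold without replicate 2 of the treated A2780cis libraries (-0.37, adjusted p = 0.0214) and when scaled by library size alone (-0.38, adjusted p = 0.0493). EDA2R at 6 h gave 0.42 (0.17 to 0.68, adjusted p = 0.0646). It passed by the DESeq2 Wald test (0.45, adjusted p = 0.0248), with lncRNA and rRNA genes removed (0.50, adjusted p = 0.0184), and without replicate 3 of the treated A2780 libraries (0.49, adjusted p = 0.0373).

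Without treatment, A2780cis held more FAS and TNFRSF1A and less EDA2R than A2780. The untreated lines differed in 5 members at each time, 4 higher and 1 lower in A2780cis, where 25.0% and 22.9% of all genes were called higher and lower at 6 h, and 25.4% and 27.5% at 12 h. FAS was 3.35-fold higher at 6 h (log2 difference 1.74, adjusted p = 3.12e-11) and 3.36-fold at 12 h (1.75, adjusted p = 2.45e-11). TNFRSF1A was 2.21-fold higher at 6 h (1.14, adjusted p = 1.36e-08) and 1.66-fold at 12 h (0.73, adjusted p = 7.30e-06). EDA2R was lower at both times (-0.71, adjusted p = 4.58e-07, and -0.36, adjusted p = 0.00165). At 12 h, TNFRSF10C (1.19, adjusted p = 3.29e-04) and TNFRSF10D (0.36, adjusted p = 0.00343) were also higher. At 6 h, FADD (0.31, adjusted p = 0.038) and CFLAR (0.24, adjusted p = 0.0341) were called higher. Of 14 other settings, the FADD call was lost in 9 and the CFLAR call in 11. Both were lost with the size factors of DESeq2 (adjusted p = 0.0649 and 0.0841), by library size alone (0.14 and 0.298) and without a filter on low counts (0.105 and 0.213). Both were lost as well with lncRNA and rRNA genes removed (0.154 and 0.224), with the compared samples alone (0.213 and 0.308) and by the DESeq2 Wald test (0.074 and 0.101). The same held without replicate 1 of the A2780 controls (adjusted p = 0.272 and 0.0525) or of the A2780cis controls (adjusted p = 0.083 and 0.0912). CFLAR was also lost without replicate 2 or 3 of the A2780 controls (adjusted p = 0.113 and 0.0554) or replicate 2 of the A2780cis controls (adjusted p = 0.0946), and FADD without replicate 3 of the A2780cis controls (adjusted p = 0.131). After 12 h of treatment the order of the lines for FAS was the reverse of that in the controls, with treated A2780cis below treated A2780 (-0.39, 95% interval -0.65 to -0.14, adjusted p = 0.00769).

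**Figure D4:**
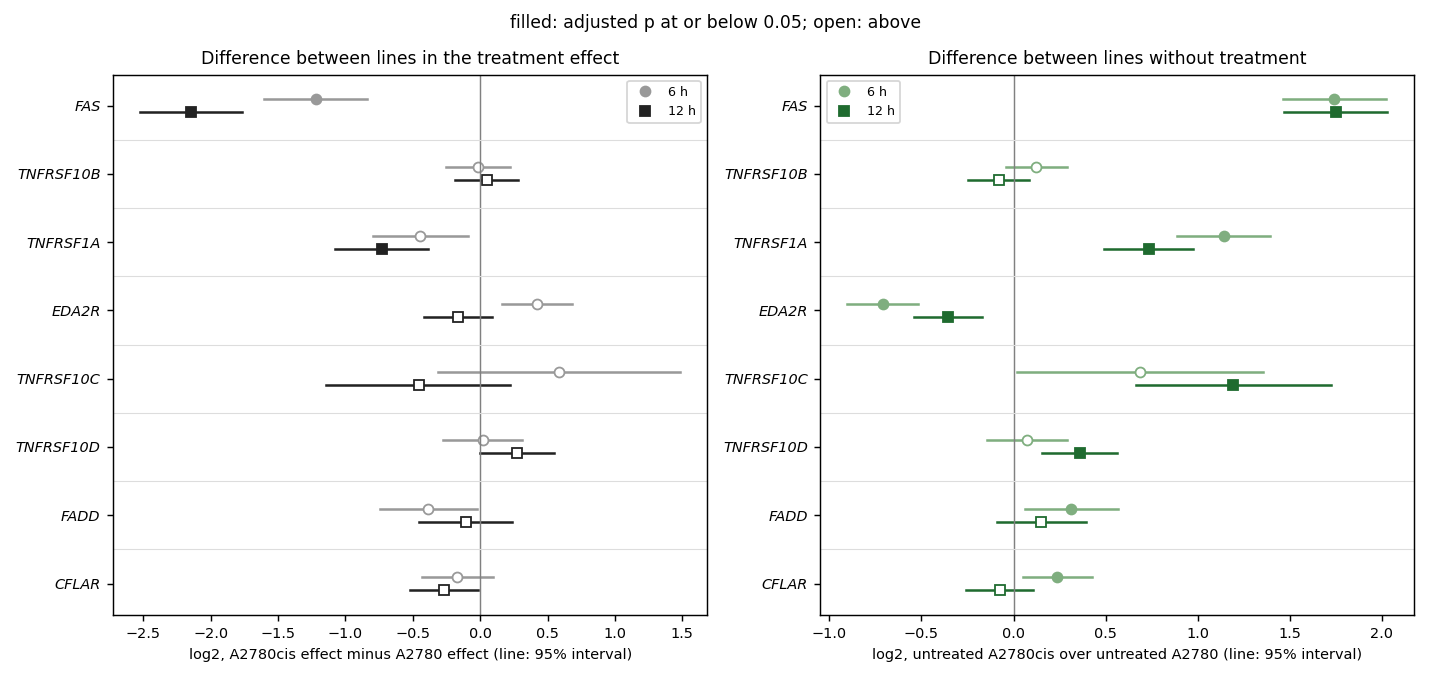
Left, difference between the lines in the treatment effect (log2, A2780cis minus A2780), and right, difference between the untreated lines (log2, A2780cis over A2780), for the 8 tested members at 6 h and 12 h with 95% intervals. Filled symbols mark an adjusted p at or below 0.05. FAS lies at -2.14 on the left and at 1.75 on the right at 12 h.

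From 6 h to 12 h the effect of treatment grew for several members. In A2780 the change of the log2 FC was 1.39 for FAS (adjusted p = 1.62e-05), 0.83 for TNFRSF10D (adjusted p = 1.37e-04), 0.70 for EDA2R (adjusted p = 2.30e-04) and 0.61 for CFLAR (adjusted p = 0.00111). With TNFRSF10C (1.25, adjusted p = 0.0375), 5 members were called higher and none lower, against 10.7% and 13.0% of all genes. The TNFRSF10C call was lost without replicate 1 or 3 of the controls of 6 h (adjusted p = 0.0675 and 0.124), of the treated libraries of 6 h (0.053 and 0.0995) or of the controls of 12 h (0.0574 and 0.107), and without replicate 2 of the treated libraries of 12 h (0.0857). In A2780cis the effect grew for TNFRSF10D (1.09, adjusted p = 6.95e-06) and CFLAR (0.51, adjusted p = 0.00436) and dropped for TNFRSF1A (-0.62, adjusted p = 0.0084), so 2 were called higher and 1 lower, against 10.3% and 13.6%. The CFLAR call was lost when low counts were not filtered (0.44, adjusted p = 0.0714). FAS (0.47, adjusted p = 0.056) and TNFRSF10B (0.31, adjusted p = 0.0513) were just outside the threshold there. FAS passed it in 6 of 20 other settings, among them the fit without replicate 1 of the A2780cis controls of 12 h (0.55, adjusted p = 0.0327) and the DESeq2 Wald test (adjusted p = 0.0346). TNFRSF10B passed in 3 of 20, among them the fit without replicate 3 of the controls of 6 h (0.37, adjusted p = 0.0241) and the Wald test (adjusted p = 0.0139). In A2780 the change for TNFRSF10B was 0.24 (adjusted p = 0.131), and it passed in 2 of 20 other settings. The EDA2R effect had a change of 0.11 in A2780cis (95% interval -0.15 to 0.37). In A2780, mean EDA2R went from 60.31 to 71.98 CPM in treated cells and from 25.43 to 18.66 CPM in the controls. Part of the change of its effect there thus lay in the controls.

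The control cells also differed with time. From 6 h to 12 h, FAS was lower in the untreated cells of both lines (log2 difference -0.60 in each, adjusted p = 0.0045 in A2780 and 8.01e-04 in A2780cis). In A2780, EDA2R was lower (-0.45, adjusted p = 0.00171) and TNFRSF1A higher (0.54, adjusted p = 0.00338). Thus 1 member was called higher and 2 lower in A2780, against 16.6% and 10.3% of all genes, and in A2780cis none higher and 1 lower, against 18.0% and 21.9%. FAS in treated A2780 cells went from 39.5 ± 5.15 to 68.4 ± 5.93 CPM, and in the controls from 15.4 ± 1.00 to 10.2 ± 2.30 CPM (SD, n = 3). In A2780cis, mean FAS went from 56.85 to 51.98 CPM in treated cells and from 51.51 to 34.06 CPM in the controls. The 12 h difference in A2780cis thus came with a lower control level and no higher treated level. Treated A2780cis of 12 h and A2780cis controls of 6 h did not differ past the threshold (log2 difference 0.01, adjusted p = 0.95).

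Ordered by mean CPM over the 8 groups, FAS was lowest in A2780 controls of 12 h, followed by A2780 controls of 6 h, A2780cis controls of 12 h, treated A2780 of 6 h, A2780cis controls of 6 h, treated A2780cis of 12 h, treated A2780cis of 6 h and treated A2780 of 12 h. Neighbours in this order differed past the threshold from A2780 controls of 12 h to those of 6 h, from these to A2780cis controls of 12 h, and from treated A2780 of 6 h to A2780cis controls of 6 h. The top group and its neighbour did not (log2 difference 0.27, adjusted p = 0.0623). For TNFRSF10D the 4 control groups came first and did not differ from neighbour to neighbour, both treated groups of 6 h followed without a difference (0.09, adjusted p = 0.445), and treated A2780 and then treated A2780cis of 12 h stood above them, each step past the threshold (0.65, adjusted p = 8.58e-07, and 0.63, adjusted p = 1.17e-06). TNFRSF10B had its 4 control groups below its 4 treated groups, with both treated groups of 12 h on top (0.03 between them, adjusted p = 0.761). For EDA2R the A2780cis controls were lowest and treated A2780 of 12 h highest. TNFRSF1A ran from 29.4 CPM in A2780 controls of 6 h to 70.8 CPM in A2780cis controls of 12 h, and the 3 groups at the top, all A2780cis, did not differ from neighbour to neighbour. FADD had no neighbours that differed past the threshold.

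Across the 24 libraries, which share lines, times and treatment, the log2 CPM of TNFRSF10B followed that of TNFRSF10D (Pearson r = 0.957) and CFLAR (0.957), while FAS followed TNFRSF10D less closely (0.686) and TNFRSF1A was not close to TNFRSF10B (-0.138). These values describe the pattern over the 8 groups and carry no test. Among 11178 other protein-coding genes whose mean log2 CPM reached 2, FAM111B (r = 0.977), CROT (0.975) and KAT2B (0.965) were most like FAS. PLK3 was the closest gene to both TNFRSF10B (0.970) and TNFRSF10D (0.980), BTG2 to EDA2R (0.973), EPB41L1 to TNFRSF1A (0.953) and RETSAT to CFLAR (0.970). For FADD, which varied little, the closest was BCAS4 (0.769).

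Of the ligands, FASLG was at 0 counts in all 24 libraries, and TNFSF10, which encodes TRAIL, had at most 5 counts. TNF had 30, 30 and 39 counts in the treated A2780 libraries of 12 h, against 1, 4 and 2 in the controls. By edgeR's test, which covers the spread between libraries, the log2 FC of TNF was 3.66 (adjusted p = 5.6e-07). Summed over the libraries this was a ratio of 13.2 for 99 against 7 counts. Its exact 95% counting interval, from 6.20 to 33.8, leaves out the spread between libraries. In A2780cis no library had more than 1 count of TNF, which is below the floor of 3 counts. Its log2 FC there at 12 h was 2.57 and was not called, and the difference between the lines in the effect was -1.09. At this depth a response of TNF in A2780cis cannot be told from none. EDA, the gene of ectodysplasin whose A2 form binds EDA2R, fell at 12 h in A2780 (log2 FC = -1.01, adjusted p = 1.90e-05) and in A2780cis (-1.78, adjusted p = 5.33e-11).

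Genes whose proteins act at the receptors were called in both directions, near the shares of all genes in A2780cis. Of 18 genes listed for receptor complexes and initiators, all tested, 8 rose and 5 fell in A2780 at 12 h and 6 rose and 6 fell in A2780cis, where 28.6% and 26.1% of all genes rose and fell in A2780 and 31.0% and 28.9% in A2780cis. The list had a median log2 FC of 0.00 and -0.03. CASP10, an initiator caspase that FADD recruits, rose in both lines (2.36, adjusted p = 1.07e-11, and 1.92, adjusted p = 1.44e-11). BIRC3, an inhibitor of apoptosis bound to the TNF receptor complex, rose more in A2780 than in A2780cis (3.06 and 0.96, difference -2.10, adjusted p = 3.36e-07). TNFAIP3, which encodes the ubiquitin-editing enzyme A20, did so too (2.85 and 0.83, difference -2.02, adjusted p = 3.15e-04). Among 6 other receptors with a death domain or in soluble form, 4 were tested. NGFR, the neurotrophin receptor, rose at 12 h in A2780 (2.07) and A2780cis (3.80) from low counts, TNFRSF21 fell (-0.87 and -1.14), and TNFRSF25 fell in A2780cis (-0.62, adjusted p = 0.0383) but did not pass in A2780 (0.43, adjusted p = 0.173). Of 16 receptors of the family without a death domain, 7 were tested. At 12 h 6 of these rose and 1 fell in A2780, and 4 rose and 1 fell in A2780cis, beside the same shares of all genes (28.6% and 26.1%, and 31.0% and 28.9%). TNFRSF14 rose (2.73 and 3.47), as did CD27 (1.14 and 2.37), and TNFRSF19, the one that fell, did so in both lines (-1.47 and -2.14). Of 3 necroptosis genes only MLKL, the effector of that pathway, was tested. It fell in A2780cis (-0.76, adjusted p = 3.24e-04) and gave -0.25 in A2780 (adjusted p = 0.605). The difference between the lines in this effect was -0.52 and was not called. Untreated A2780cis held far more MLKL than untreated A2780 (log2 difference 5.39 at 6 h and 4.88 at 12 h), so a fall was harder to detect in A2780.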

How the data were processed

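Total RNA libraries of A2780 and A2780cis cells were sequenced, and the authors deposited 1 table of expected counts: reads were trimmed with Trimmomatic, aligned with STAR 2.5.2b to GRCh38.p7 and counted on exons with featureCounts, with fractions for reads that align to several places and with reads over several genes allowed. The labels give single reads and the methods paired reads. Members and gene lists were chosen with earlier results of these data known.

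After rounding, the table was fitted with edgeR 4.0.16 under R 4.3.3 (filterByExpr with minimum count 10 and minimum total 15, TMM, quasi-likelihood test, 1 coefficient for each of 8 groups, 16 residual degrees of freedom, two-sided, Benjamini-Hochberg over 20240 genes). Intervals of 95% use the same fit and cover the spread between libraries. The counting interval and the floor of 3 counts cover counting error only. FPKM divides CPM by exon length of GENCODE release 44, which lists 56948 of the 63299 genes. RefSeq starts were used for the site search. All members were named. From each other list up to 3 tested genes with the smallest adjusted p at 12 h in either line were named, and FASLG, TNFSF10 and TNF always. DESeq2 1.42.0 served as an alternative. The procedure was tested on simulated counts.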

Additional observations from a re-analysis of the deposited data

Results flagged for a closer look

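The effect of treatment differed between the lines, by the interaction test of edgeR, for FAS at 6 h (-1.22, A2780cis minus A2780 on the log2 scale) and 12 h (-2.14) and for TNFRSF1A at 12 h (-0.73). It differed between 6 h and 12 h in A2780 for FAS (1.39), TNFRSF10C (1.25), TNFRSF10D (0.83), EDA2R (0.70) and CFLAR (0.61). The TNFRSF10C difference was lost in 9 of 20 other settings, with adjusted p up to 0.124. In A2780cis it differed between the times for TNFRSF1A (-0.62), TNFRSF10D (1.09) and CFLAR (0.51), the last lost without a filter on low counts (adjusted p = 0.0714). Comparisons of the same line and time share their control libraries.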

How the results depend on the processing

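Of 1106 single values recomputed under other settings, 1028 kept their direction and their side of the threshold, 43 lost it, 21 gained it and 14 changed sign, the last for values near 0. The FADD effect in A2780 at 6 h was -0.026 with the size factors of DESeq2, -0.023 by its Wald test, -0.0097 with lncRNA and rRNA genes removed, and -0.12 to 0.12 with each library left out. TNFRSF10C there ranged from -0.019 to 0.33 with each library left out. At 12 h in A2780, scaling by library size alone gave 0.17 for TNFRSF1A and 0.20 for FADD, the removal of lncRNA and rRNA genes gave 0.00018 for FADD, and leaving out each library gave -0.15 to 0.0082 and -0.10 to 0.10. TNFRSF10B differed between the lines at 12 h by -0.067 by library size alone. That scaling moved the median of all genes from 0.04 to 0.10 (6 h) and from 0.02 to 0.24 (12 h) in A2780 and from 0.04 to 0.15 in A2780cis at 12 h, and that of the line difference at 12 h from -0.04 to -0.16. Of the counts of members, those lower in A2780cis at 6 h were 0 by library size alone and without a filter, and 0 to 1 with each library left out. The number with a larger 6 h effect in A2780cis was 1 by the Wald test and with lncRNA and rRNA genes removed, and 0 to 1 with each library left out. The number higher in untreated A2780cis at 6 h was 2 with the size factors of DESeq2, by library size alone, without a filter, with lncRNA and rRNA genes removed, with the compared samples alone and by the Wald test, and 2 to 3 with each library left out. The number whose effect grew with time in A2780cis was 4 with the size factors of DESeq2 and by the Wald test, and 1 without a filter. Over time in untreated cells, the number higher was 2 in both lines by library size alone, and 1 in A2780cis with lncRNA and rRNA genes removed. Correlations of same-numbered libraries ran from -0.254 to 0.312, and 2 of 12 treated libraries were closest to their own number. With 3 libraries in a group, these values cannot decide whether replicate numbers pair the samples. Every comparison had more genes called with the replicate number as a block than without it. With the replicate number as a block, 6 members rose at 12 h in each line, as without it, and the change of the FAS effect with time in A2780cis passed the threshold (0.47, adjusted p = 0.0398). Depth limited TNFRSF10A and TNFRSF10C.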
